A study of Mus musculus with 12 samples.

Results

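The 9 genes described here belong to the fetal contractile and stress genes of heart muscle cells: Acta1, Myh7, Mybpc2, Myh6, Ankrd1, Xirp2, Nmrk2, Uchl1 and Serpina3n. They were chosen by name, with earlier results of these data known. All 9 were found among the 49492 rows of the count table and among the 15542 genes that passed the filter on low counts. RNA was measured by polyadenylated RNA sequencing in 12 mouse left ventricle libraries, 3 in each of 4 groups. The groups were WT_NS and WT_TAC (wild type), and Alox5ko_NS and Alox5ko_TAC (knockout of Alox5, the gene of arachidonate 5-lipoxygenase). TAC is transverse aortic constriction, a surgical narrowing of the aorta that loads the left ventricle with pressure. NS is not spelled out in the labels and stands here for the groups without TAC. The design text describes the knockout as cardiac, and the promoter, the targeted cells, age, strain and time after TAC are not given in the sources used here. The labels do not say whether each library came from a different animal, so the p-values measure only the spread between these samples.

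A pressure-overloaded adult heart turns on part of the gene program it used before birth. In the adult mouse ventricle the fast alpha myosin heavy chain (Myh6) and cardiac actin (Actc1) dominate, and overload brings back the slower beta myosin heavy chain (Myh7) and skeletal actin (Acta1). Stretch-responsive genes of the sarcomere and of the intercalated disc, the junction that joins neighbouring myocytes end to end, rise in the same setting.

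Totals ran from 20889431 to 27311196 counts per library. Alox5 stood at 9.56 to 13.9 CPM in the 6 WT libraries and at 0.934 to 1.46 CPM in the 6 Alox5ko libraries, with no overlap. CPM, a count scaled to the library total times its TMM factor, is the level used here; summed levels use the library total alone. The 8 markers of ventricular cardiomyocytes, Myl2 and Tnnt2 among them, summed to between 63520 and 68360 CPM in every library. Tnnt2 weighed most in this sum, with 847820 to 1088910 counts per library, so the sum does not show each marker. Of its members reported below, Mybpc3 rose with TAC and Actc1 was not called. In whole tissue, fewer cells of a type and less RNA per cell cannot be told apart.

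The stretch upstream of the start site is shown for 6 of the 9 genes, because these hold a match to a motif searched for. Each line gives the 250 bases before a RefSeq start, 5′ to 3′ on the gene's strand, in GRCm38.p6. All 9 genes had an entry. Capitals mark a match to one of 5 motifs, on either strand: M-CAT (CATTCC, or GGAATG read from the other strand), the CArG box, the MEF2 site, GATAA (or TTATC) and AGGTCA (or TGACCT). The Acta1 window is chr8:123894776-123895025, minus strand. The Ankrd1 window is chr19:36119845-36120094, minus strand. That of Mybpc2 is chr7:44524670-44524919, minus strand. For Myh7 the first of its RefSeq starts was used, chr14:54994627-54994876, minus strand. The Myh6 window is chr14:54966608-54966857, minus strand. Xirp2 is on the plus strand, chr2:67445752-67446001. By the exons of the deposited table, the Myh6 window holds 34 exon bases of Myh6 and the Myh7 window 8 of Myh7. The windows of Acta1, Ankrd1, Mybpc2 and Xirp2 hold 0.
Acta1: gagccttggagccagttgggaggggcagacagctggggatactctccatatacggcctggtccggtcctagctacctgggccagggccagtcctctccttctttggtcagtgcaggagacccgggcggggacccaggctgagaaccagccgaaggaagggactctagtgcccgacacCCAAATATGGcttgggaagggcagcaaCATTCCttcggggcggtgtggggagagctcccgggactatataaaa
Ankrd1: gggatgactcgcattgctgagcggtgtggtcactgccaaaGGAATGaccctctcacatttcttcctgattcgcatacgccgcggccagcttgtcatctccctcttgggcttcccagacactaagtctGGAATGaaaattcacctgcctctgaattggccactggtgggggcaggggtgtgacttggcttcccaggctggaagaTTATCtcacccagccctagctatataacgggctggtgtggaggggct
Mybpc2: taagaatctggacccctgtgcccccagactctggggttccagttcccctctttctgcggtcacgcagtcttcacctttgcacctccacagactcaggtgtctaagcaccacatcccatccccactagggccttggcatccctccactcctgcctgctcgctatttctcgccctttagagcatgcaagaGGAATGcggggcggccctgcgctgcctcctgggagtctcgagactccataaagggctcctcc
Myh7: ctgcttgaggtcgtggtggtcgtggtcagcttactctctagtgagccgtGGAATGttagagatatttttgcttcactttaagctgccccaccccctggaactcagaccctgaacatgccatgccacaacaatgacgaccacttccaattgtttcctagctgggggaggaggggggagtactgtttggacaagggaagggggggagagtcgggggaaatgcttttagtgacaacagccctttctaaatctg
Myh6: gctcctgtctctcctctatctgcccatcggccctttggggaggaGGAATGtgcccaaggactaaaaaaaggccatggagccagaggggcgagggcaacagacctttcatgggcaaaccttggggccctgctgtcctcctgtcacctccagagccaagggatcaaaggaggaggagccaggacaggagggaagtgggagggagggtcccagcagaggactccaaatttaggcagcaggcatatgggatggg
Xirp2: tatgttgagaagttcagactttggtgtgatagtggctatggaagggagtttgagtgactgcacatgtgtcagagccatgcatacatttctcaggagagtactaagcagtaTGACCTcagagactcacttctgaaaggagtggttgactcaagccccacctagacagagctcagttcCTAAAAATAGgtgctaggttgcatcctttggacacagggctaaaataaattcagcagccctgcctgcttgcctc

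CATTCC was present upstream of 5 of the 9 genes (Acta1, Myh7, Mybpc2, Myh6 and Ankrd1), and in 12.6% of 32851 promoters of the same length. A gene was counted if any of its starts had a match, whereas the share is per promoter. For Myh7 only the start shown had one, and the window of its other start held none of the 5 motifs. The match in Acta1 began 46 bases before the start, and that in Mybpc2 62 bases before it. Ankrd1 held 2 matches. A CArG box, the site of serum response factor, was found upstream of Acta1 and in 1.5% of all promoters. A MEF2 site was found upstream of Xirp2 and in 2.9% of all. GATAA was found upstream of Ankrd1 (22.6% of all) and AGGTCA upstream of Xirp2 (14.0% of all). These are letter matches in 1 window per start, and no binding was measured.

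At baseline the 9 genes spanned a wide range. Compared per length, as the authors' deposited RPKM, the mean level in WT_NS was 17138 ± 955 (SD, n = 3) for Myh6 and 999.9 ± 465 for Ankrd1. It was 256 ± 14.7 for Myh7, 119 ± 79.5 for Acta1 and 61.2 ± 13.2 for Xirp2. Mybpc2 followed at 7.40 ± 2.71, Nmrk2 at 4.18 ± 1.02, Uchl1 at 1.55 ± 0.444 and Serpina3n at 0.700 ± 0.324. The last 3 rested on few reads: 122 to 325 counts per library for Nmrk2, 40 to 116 for Uchl1 and 15 to 110 for Serpina3n.

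**Figure D1:**
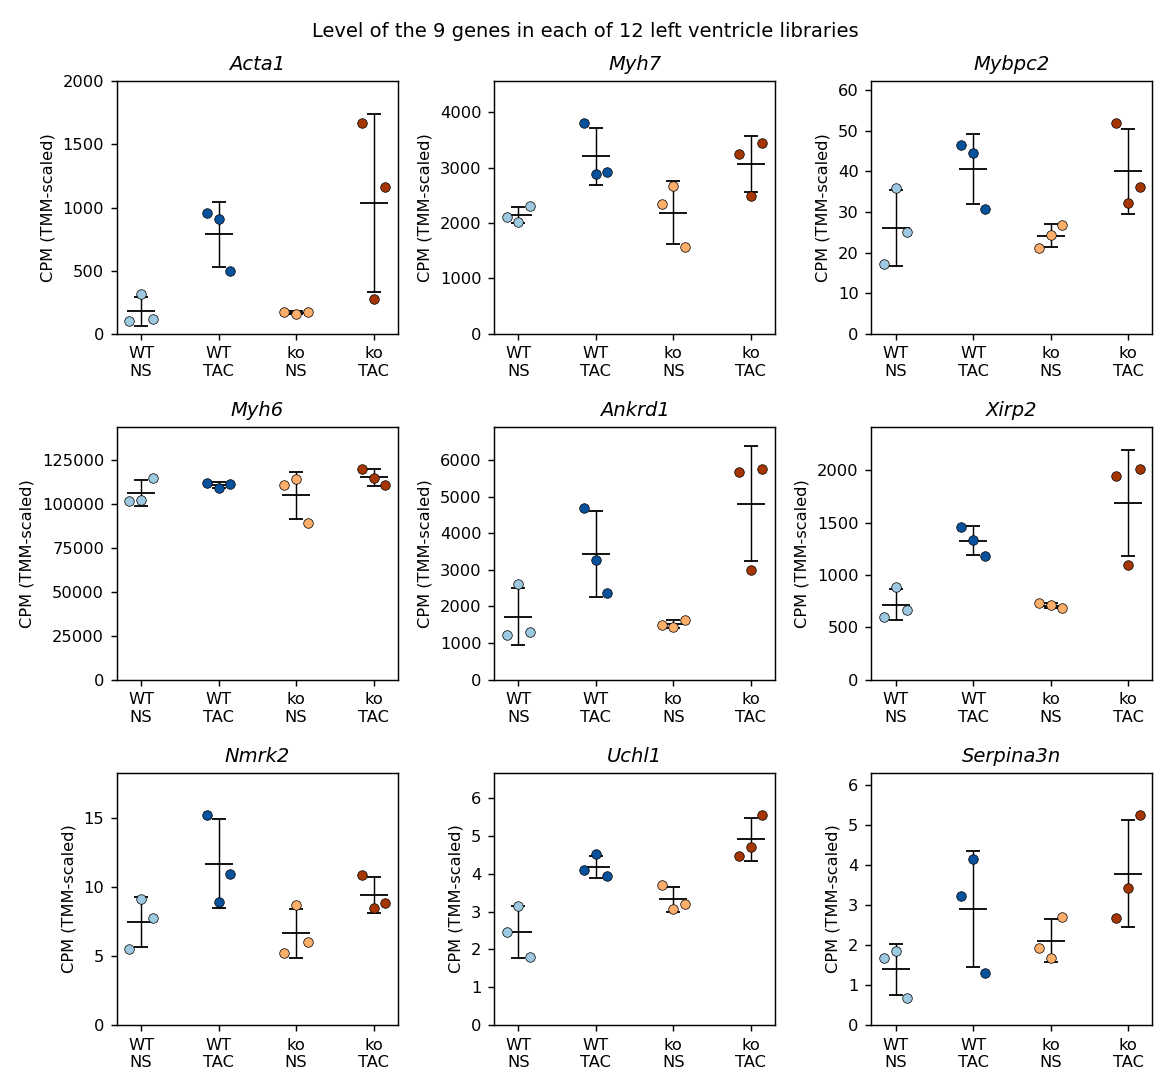
CPM (TMM-scaled, linear axis from 0) of each of the 9 genes in 12 libraries, with ko standing for Alox5ko. Points are libraries, the wide tick is the group mean and the bars are 1 SD (n = 3). Acta1 runs from 102 to 1668 CPM over the libraries, and Myh6 stays between 89325 and 119850 CPM.

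Averaged over both genotypes, 4 of the 9 genes rose with TAC and none fell. Acta1 rose most, 5.26-fold, followed by Ankrd1 at 2.52-fold, Xirp2 at 2.10-fold and Uchl1 at 1.58-fold. Over all genes tested, 2.9% were called higher and 2.19% lower. All 9 log2 fold changes were positive, against 50.2% of all genes, and the median of the 9 was 0.69 against 0.00075 for all genes. By unadjusted p, 8 of the 9 were under 0.05, against 19.3% of all genes. Because the 9 were chosen with earlier results of these data known, these shares and those below are descriptions and not a test of the set. With 1 library left out at a time, Xirp2 and Uchl1 were called in all 12 fits, and Acta1 and Ankrd1 only in the 3 without WT_NS 2, WT_TAC 3 or Alox5ko_TAC 2 (edgeR adjusted p up to 0.0861 for Acta1 and 0.0862 for Ankrd1 in the other 9).

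The fetal and skeletal isoforms of the contractile apparatus come first. Acta1 (chr8:123891769-123894751) encodes skeletal alpha-actin, the isoform of the fetal heart and of adult skeletal muscle. In WT it stood at 102, 313 and 117 CPM in the NS libraries and at 959, 913 and 494 CPM in the TAC libraries. Alox5ko_NS held 176, 153 and 169.8 CPM, and Alox5ko_TAC held 1668, 278 and 1161 CPM. The groups did not overlap within either genotype, yet Alox5ko_TAC 2 lay below WT_NS 2. The log2 fold change was 2.15 (SE 0.68, adjusted p = 0.243) in WT and 2.64 (SE 0.69, adjusted p = 0.127) in Alox5ko. Only the average of both, 2.40 (SE 0.48, adjusted p = 0.0295), passed the threshold of 0.05.

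Its adult partner Actc1 differed by a log2 fold change of 0.04 (SE 0.07, adjusted p = 0.828) in the same average. The ratio of Acta1 to Actc1, from RPKM, was 3.52%, 9.08% and 3.45% in WT_NS and 28%, 27.9% and 17.2% in WT_TAC. In Alox5ko it was 5.23%, 4.77% and 5.52% without TAC and 43.1%, 8.57% and 36.0% with it. Skeletal actin thus remained the smaller part of the pair in every library, with Alox5ko_TAC 2 within the range of WT_NS. The ratio was 4.77 times higher with TAC (exact permutation test within genotypes, two-sided, p = 0.005, the smallest it can give). Adjusted over the 10 ratio tests, the exact permutation p was 0.05, which is not under the threshold.

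Myh7 (chr14:54970688-54994634) encodes beta myosin heavy chain, the slow motor of the fetal mouse ventricle. WT_NS libraries held 2111, 2015 and 2309.6 CPM, and WT_TAC libraries held 3804, 2894 and 2929.9 CPM. In Alox5ko the values were 2336, 2662 and 1560.4 CPM without TAC and 3242, 2489 and 3449.8 CPM with it. The WT groups were separate, and the Alox5ko groups overlapped through Alox5ko_NS 2 and Alox5ko_TAC 2. The averaged log2 fold change was 0.53 (SE 0.14) with an adjusted p of 0.0523 just above the threshold of 0.05. DESeq2 called Myh7 in this average, and edgeR did so without Alox5ko_NS 2, Alox5ko_NS 3 or Alox5ko_TAC 2 (adjusted p = 0.0289, 0.0349 and 0.0336).

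Myh6 (chr14:54941981-54966927), the adult alpha myosin heavy chain, was the most abundant of the 9 and differed least. In WT it held 101640, 102200 and 114510 CPM without TAC, then 112110, 108990 and 111240 CPM with it. Alox5ko libraries held 110750, 114190 and 89325 CPM without it, and 119850, 114590 and 110610 CPM under TAC. All 4 groups overlapped with the next in order of mean, and the averaged log2 fold change was 0.10 (95% interval -0.03 to 0.23, adjusted p = 0.43). A fall of Myh6 larger than 0.03 on the log2 scale lies outside that interval. Without Alox5ko_NS 3, the library with the lowest Myh6 and Myh7, the log2 fold change was 0.047 (adjusted p = 0.663).

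The ratio of Myh7 to Myh6, both per length, was small in every library. The deposited lengths are 8586 bases for Myh7 and 6347 for Myh6, against 6230 and 6113 in their longest coding transcripts. The ratio is therefore not a share of transcripts. It was 1.54%, 1.46% and 1.49% in WT_NS and 2.51%, 1.96% and 1.95% in WT_TAC. Alox5ko_NS gave 1.56%, 1.72% and 1.29%, and Alox5ko_TAC gave 2.0%, 1.61% and 2.31%. WT_TAC was above WT_NS in all 3 libraries, whereas Alox5ko_TAC 2 lay below Alox5ko_NS 2. Averaged over genotypes the ratio was 1.35 times higher with TAC (exact two-sided permutation within genotypes, p = 0.01, adjusted p = 0.05). The adjusted value is not under the threshold. Within WT it was 1.42 times higher (exact p = 0.1, the smallest 3 against 3 can give, adjusted 0.25), and within Alox5ko 1.29 times higher (exact p = 0.2, adjusted 0.4).

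The TAC hearts of both genotypes had similar ratios, 2.14% ± 0.320 in WT_TAC and 1.97% ± 0.351 in Alox5ko_TAC (SD, n = 3; exact permutation p = 0.6). The responses of the 2 genotypes differed by -0.14 on the log2 scale (exact permutation p = 0.535). Part of the 2 transcripts is identical: 5.43% of the 150-base windows of Myh7 occur unchanged in Myh6, and 5.53% of those of Myh6 in Myh7. Myh6 held 2007909 to 3061142 counts per library and Myh7 35076 to 80991. Reads from those windows cannot be assigned to either gene from their sequence alone, and how they were counted is not given in the sources used here. Their part in the Myh7 level and in the ratio was not tested.

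**Figure D2:**
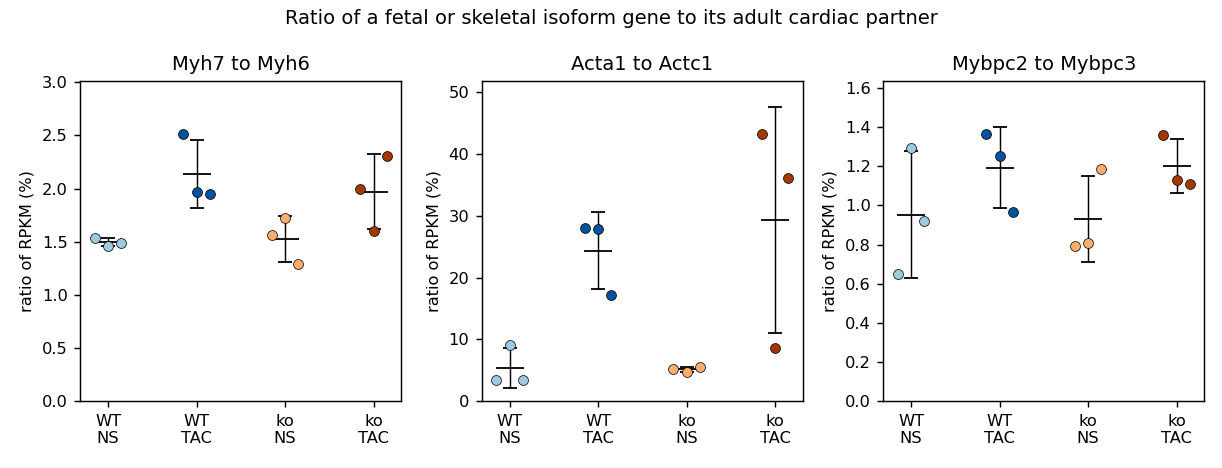
Ratio of RPKM, in percent on linear axes from 0, of Myh7 to Myh6, Acta1 to Actc1 and Mybpc2 to Mybpc3 in 12 libraries, with ko standing for Alox5ko. Points are libraries, the wide tick is the group mean and the bars are 1 SD (n = 3). The Myh7 to Myh6 ratio lies between 1.29% and 2.51%, and Alox5ko_TAC 2 is the lowest TAC library in the first 2 panels.

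Mybpc2 (chr7:44501699-44524656) encodes fast skeletal myosin-binding protein C. The WT_NS libraries had 17.1, 35.9 and 25.1 CPM, those of WT_TAC 46.5, 44.5 and 30.7. Alox5ko_NS held 21.2, 24.3 and 26.8 CPM and Alox5ko_TAC 51.9, 32.2 and 36.1 CPM. The WT groups overlapped through WT_NS 2 and WT_TAC 3, and the Alox5ko groups did not overlap. The averaged log2 fold change was 0.69 (SE 0.20, adjusted p = 0.0993) and did not pass.

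The cardiac partner Mybpc3 did rise, by 0.32 on the log2 scale (SE 0.07, adjusted p = 0.0159). The ratio of Mybpc2 to Mybpc3 averaged 0.953% ± 0.323 in WT_NS, 1.19% ± 0.206 in WT_TAC, 0.930% ± 0.220 in Alox5ko_NS and 1.2% ± 0.138 in Alox5ko_TAC (SD, n = 3). It was 1.3 times higher with TAC over both genotypes (exact permutation p = 0.08, adjusted 0.25). The 10 skeletal muscle markers were uneven. Myh1 reached at most 9 counts, Myh2 7, Myh4 4, Actn3 3 and Pvalb 5 in any library, and Tnnc2 ran from 4 to 18. Tnnt3 ran from 13 to 56 counts, Mylpf from 31 to 52 and Tnni2 from 59 to 114, while Ckm, which heart muscle also makes, ran from 22258 to 33477. The list summed to 1132 to 1275 CPM (WT_NS), 1269 to 1296 (WT_TAC), 1147 to 1197 (Alox5ko_NS) and 1038 to 1414 (Alox5ko_TAC). None of the 5 tested markers was called in the average, and their part in the Mybpc2 values was not tested.

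The next group responds to stretch at the sarcomere and the intercalated disc. Ankrd1 (chr19:36111965-36119844) encodes the cardiac ankyrin repeat protein, which shuttles between the titin spring and the nucleus. WT_NS held 1217, 2621 and 1313 CPM, and WT_TAC held 4679, 3282 and 2358 CPM. Alox5ko_NS held 1489.5, 1434 and 1631 CPM, and Alox5ko_TAC held 5676, 3009.8 and 5759.5 CPM. The Alox5ko groups were separate, and in WT the highest NS library (WT_NS 2) exceeded the lowest TAC library (WT_TAC 3). The log2 fold change was 1.0 (SE 0.39, adjusted p = 0.349) in WT, 1.67 (SE 0.39, adjusted p = 0.0985) in Alox5ko and 1.33 (SE 0.28, adjusted p = 0.0317) on average.

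Xirp2 (chr2:67446002-67526614) encodes an actin-binding protein of the intercalated disc. Without TAC it stood at 599.8, 883 and 660.4 CPM in WT and at 728, 709 and 686 CPM in Alox5ko. With TAC it stood at 1459.6, 1335 and 1183.5 CPM in WT and at 1942, 1099 and 2012 CPM in Alox5ko. All 6 TAC libraries were above all 6 NS libraries, a pattern shared by Uchl1 alone of the 9 and by 1.42% of all genes tested. The log2 fold change was 0.89 (SE 0.22, adjusted p = 0.126) in WT. In Alox5ko it was 1.25 (SE 0.22, adjusted p = 0.0313), the only call among the 9 within a single genotype. The average was 1.07 (SE 0.16, adjusted p = 0.00548).

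That call within Alox5ko held without Alox5ko_TAC 2 and was lost without any other of the 6 libraries (adjusted p up to 0.118). Gm13601, an antisense gene inside Xirp2 that shares 168 exon bases with it, carried 4.19% to 4.93% as many counts as Xirp2 in every library. Its averaged log2 fold change was 1.03 (adjusted p = 0.00951). Whether counting used strand is not stated in the sources used here, so reads of the pair cannot be told apart. Gm13601 was picked out after its values were seen.

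The remaining 3 genes encode enzymes and a secreted inhibitor, all at low levels. Nmrk2 (chr10:81198170-81202037) encodes nicotinamide riboside kinase 2, which makes the precursor of NAD from nicotinamide riboside. WT libraries had 5.54, 9.16 and 7.81 CPM without TAC, and 15.3, 8.96 and 10.9 CPM with it. Alox5ko libraries had 5.27, 8.69 and 6.05 CPM without TAC, and 10.9, 8.5 and 8.85 CPM with it. NS and TAC libraries overlapped in both genotypes, in each case through the libraries numbered 2, and the averaged log2 fold change of 0.57 (SE 0.17, adjusted p = 0.0754) did not pass. Atcayos, an antisense gene, shares 270 exon bases with Nmrk2, carried 189% to 513% as many counts as Nmrk2, and differed by -0.04 (adjusted p = 0.898).

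Uchl1 (chr5:66676091-66687234) encodes a ubiquitin carboxyl-terminal hydrolase best known from neurons. WT_NS held 2.45, 3.15 and 1.80 CPM and WT_TAC 4.09, 4.50 and 3.95 CPM. Alox5ko_NS held 3.70, 3.06 and 3.2 CPM and Alox5ko_TAC 4.46, 4.71 and 5.55 CPM. The gap between the highest NS library, 3.70 CPM, and the lowest TAC library, 3.95 CPM, was small. The log2 fold change was 0.76 (SE 0.19, adjusted p = 0.0672) in WT, 0.56 (SE 0.18, adjusted p = 0.129) in Alox5ko and 0.66 (SE 0.13, adjusted p = 0.00574) on average. Of the neuronal and Schwann cell markers, 0 of 4 tested were called in the average, and Th and Snap25 had at most 3 counts in any library. The 9 markers of that list summed to 3.63 to 5.30 CPM (WT_NS), 3.27 to 4.48 (WT_TAC), 2.68 to 3.48 (Alox5ko_NS) and 2.27 to 3.59 (Alox5ko_TAC). Uchl1os, an antisense gene, shares 295 exon bases with Uchl1 and had 1 to 16 counts.

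Serpina3n (chr12:104406729-104414329) encodes a secreted serine protease inhibitor of the acute phase. WT_NS libraries had 1.68, 1.86 and 0.673 CPM, those of WT_TAC 3.24, 4.16 and 1.32. In Alox5ko they were 1.94, 1.68 and 2.71 CPM without TAC and 2.67, 3.43 and 5.26 CPM with it. NS and TAC overlapped in both genotypes, and the averaged log2 fold change was 0.95 (SE 0.31, adjusted p = 0.112), which did not pass. The lowest WT_NS library rested on 15 counts.

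**Figure D3:**
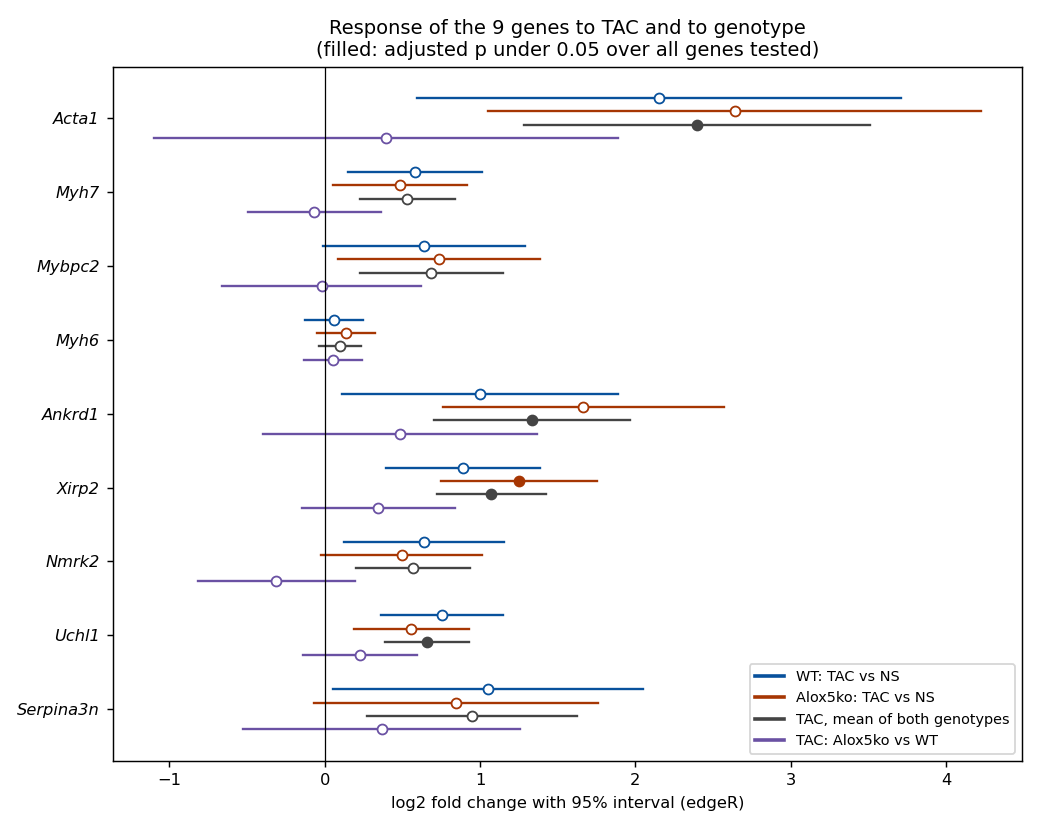
Log2 fold change (x axis) with its 95% interval for the 9 genes (y axis) under TAC in WT, under TAC in Alox5ko, for the mean of both, and between genotypes under TAC. Filled points have an adjusted p under 0.05. Filled points are Acta1, Ankrd1, Xirp2 and Uchl1 for the mean, and Xirp2 for Alox5ko, and every interval between genotypes includes 0.

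Within WT, TAC gave no call among the 9 by edgeR, where 0.766% of all genes were called. Here 7 of the 9 had an unadjusted p under 0.05 (11.9% of all genes), and all 9 fold changes were positive (50.9% of all genes). DESeq2 called 3 of them in this comparison (Acta1, Xirp2 and Uchl1) and 288 genes in all. Acta1, Myh7, Xirp2 and Uchl1 had no overlap between WT_TAC and WT_NS, with WT_TAC higher, as did 10.1% of all genes.

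Within Alox5ko, 1 of the 9 was called (Xirp2), where 1.34% of all genes were. An unadjusted p under 0.05 was found for 6 of the 9 (14.5% of all genes), and all 9 fold changes were positive (49.3% of all genes). Acta1, Mybpc2, Ankrd1, Xirp2 and Uchl1 did not overlap between Alox5ko_TAC and Alox5ko_NS, with TAC higher, against 8.98% of all genes. DESeq2 called 3 here (Acta1, Ankrd1 and Xirp2) and 407 genes in all. The calls of the 2 genotypes differ, but the difference itself did not pass for any of the 9 genes.

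The test of that difference, subtracting the WT response from the Alox5ko response, called 0 of the 9 genes with edgeR and 0 with DESeq2. Over all genes it called 0% with edgeR and 1 gene with DESeq2. None of the 9 had an unadjusted p under 0.05, against 5.38% of all genes. The estimates were widest for Acta1, 0.49 on the log2 scale (95% interval -1.63 to 2.61), and Serpina3n, -0.21 (-1.56 to 1.15). They were 0.66 (-0.58 to 1.91) for Ankrd1, 0.36 (-0.34 to 1.05) for Xirp2 and -0.20 (-0.74 to 0.34) for Uchl1. For Myh7 the difference was -0.10 (-0.70 to 0.51), for Mybpc2 0.10 (-0.82 to 1.01), for Nmrk2 -0.14 (-0.87 to 0.59) and for Myh6 0.07 (-0.19 to 0.34).

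Under TAC, Alox5ko and WT were compared directly, as the question of the study concerns Alox5 in cardiac hypertrophy. No gene of the 9 was called by edgeR or DESeq2, none had an unadjusted p under 0.05 (8.49% of all genes), and all 9 overlapped between the groups. Over all genes, 0.109% were called by edgeR, and DESeq2 called 55 genes in all. With no overlap, 5.77% of all genes were higher in Alox5ko_TAC and 6.51% lower. The log2 difference was 0.39 (95% interval -1.10 to 1.88) for Acta1 and 0.49 (-0.40 to 1.37) for Ankrd1. It was 0.34 (-0.15 to 0.84) for Xirp2, 0.37 (-0.53 to 1.26) for Serpina3n, 0.23 (-0.14 to 0.59) for Uchl1 and 0.05 (-0.13 to 0.24) for Myh6. It was -0.31 (-0.81 to 0.19) for Nmrk2, -0.07 (-0.50 to 0.36) for Myh7 and -0.02 (-0.66 to 0.62) for Mybpc2. With 3 libraries a group, the data were compatible with any difference within these intervals.

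Without TAC, the knockout gave 0 calls among the 9 with either tool (0.0386% of all genes with edgeR, 23 genes with DESeq2). Uchl1 was 0.43 higher on the log2 scale in Alox5ko_NS (SE 0.19, unadjusted p = 0.0367, adjusted p = 0.752), with overlapping libraries. It was the 1 gene of the 9 with an unadjusted p under 0.05, where 6.36% of all genes were. Serpina3n differed by 0.57 (SE 0.47, adjusted p = 0.872). The other 7 lay between -0.18 and 0.03.

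The libraries of a group did not respond alike. Over the 8 genes other than Myh6, WT_NS 2 was the highest WT_NS library for 7 genes, and Alox5ko_TAC 2 was the lowest Alox5ko_TAC library for 6. WT_TAC 1 was the highest of its group for 6 genes and WT_TAC 3 the lowest for 6. The mean of the 8 genes, each centred on its own mean of log2 CPM, was -0.78, -0.10 and -0.79 in WT_NS and 0.69, 0.51 and 0.07 in WT_TAC. It was -0.47, -0.43 and -0.44 in Alox5ko_NS and 0.79, 0.13 and 0.80 in Alox5ko_TAC. These means were closest together in Alox5ko_NS, although for the myosin pair that group was the widest, with a coefficient of variation of 25.9% for Myh7 and 12.9% for Myh6. Alox5ko_NS 3 was low in both, and mitochondrially encoded genes took 21.4% of its counts, against 14.6% to 18.7% in the other 11 libraries; their part in the myosin values was not tested. By the mean of the 8 genes, WT_TAC 3 and Alox5ko_TAC 2 were the TAC libraries nearest to the NS ones.

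**Figure D4:**
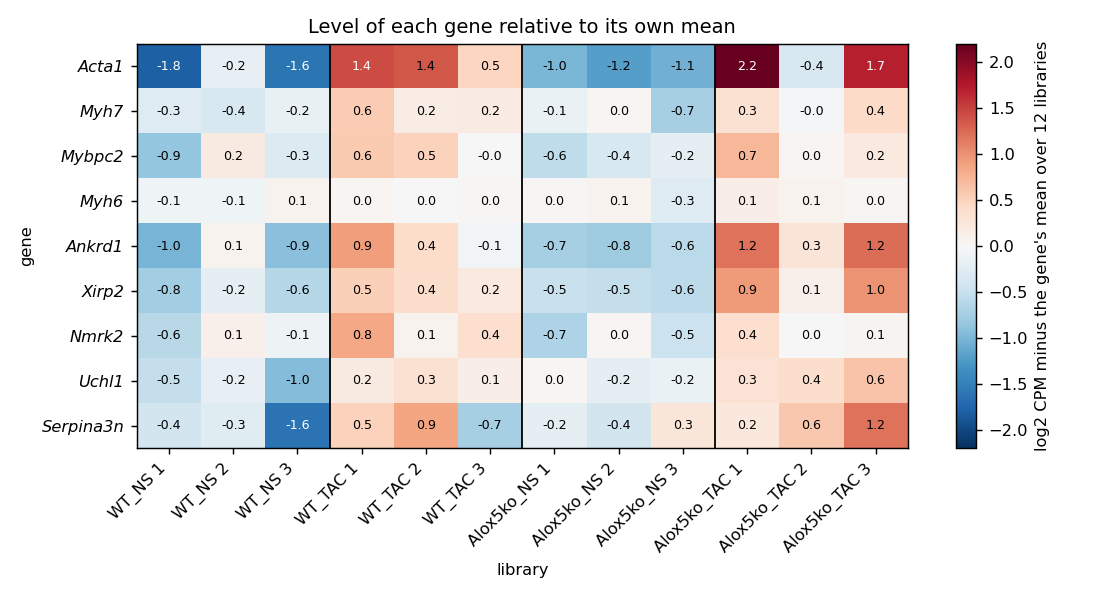
Log2 CPM of each gene (rows) minus its mean over the 12 libraries (columns), with red above and blue below 0 and the value in each cell. Black lines part the 4 groups. Acta1 spans the widest range and Myh6 the narrowest, and for Acta1, Ankrd1 and Xirp2 WT_NS 2 is the highest of its group and Alox5ko_TAC 2 the lowest of its own.

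Markers of other cells were also read in these libraries. Of the 7 tested markers of activated fibroblasts, 3 were called higher in the average (Cilp, Ltbp2 and Thbs4) and all 7 were positive. Over all genes, 2.9% were called higher and 50.2% were positive. The 8-gene sum of activated fibroblast markers was 345.6, 103 and 128 CPM in the 3 WT_TAC libraries and 175, 63.7 and 205 CPM in Alox5ko_TAC. It was 63.3, 57.3 and 37.2 CPM in WT_NS and 27 to 38.7 CPM in Alox5ko_NS. No marker of that list was at 0 in every library, and Cthrc1 had at most 6 counts. The sums were highest in WT_TAC 1 and lowest of the TAC libraries in Alox5ko_TAC 2. WT_NS 2 and WT_TAC 3 each lay between the other libraries of their group in this sum. Over the 8 genes other than Myh6 they were most often the highest and the lowest of their group, respectively. The part of activated fibroblasts in the results for the 9 genes was not tested.

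Of 5 tested atrial markers, 1 was called higher in the average (Nppa), where 2.9% of all genes were. The sum of 6 such markers was 184 to 364.5 CPM (WT_NS), 645.8 to 1351 (WT_TAC), 172 to 293.7 (Alox5ko_NS) and 286 to 1330 (Alox5ko_TAC). Without Nppa, which the overloaded ventricle also makes, 5 markers summed to between 2.71 CPM (Alox5ko_NS 2) and 107.5 CPM (Alox5ko_TAC 3). Alox5ko_TAC 2 held 4.08 CPM, and WT_NS 1 and WT_TAC 1 held 83.6 and 82.5 CPM. These 5 were uneven: Myl4 ran from 36 to 1629 counts per library, Dkk3 from 26 to 469, Myl7 from 0 to 276 and Sln from 0 to 27. Bmp10 had at most 3 counts. The part of atrial tissue in the results was not tested.

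Other fetal and hypertrophic genes were read beside the 9, from lists chosen with results of these data known. In the average, 11 of 19 such genes rose and none fell, with a median log2 fold change of 0.52 (2.9% of all genes were called higher). Des (desmin, the muscle intermediate filament) rose by 0.51 (adjusted p = 0.00171), and Enah (an actin regulator of cell junctions) by 0.79. Ankrd23, a relative of Ankrd1, rose by 0.79, and Pfkp, the platelet isoform of phosphofructokinase, by 0.40. Genes of the adult sarcomere rose in 5 of 16 cases, among them Actn2 by 0.42, Myom1 by 0.37, Mybpc3 by 0.32 and Ldb3 by 0.21. Of 7 tested genes of other sarcomeric myosins and fast skeletal muscle, none passed. Myl1, a fast skeletal light chain, had the smallest p, with 0.90 (adjusted p = 0.0664).

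Partners of Xirp2 at the intercalated disc rose in 3 of 12 cases and fell in none. Over all genes, 2.9% were called higher in the average and 2.19% lower, which also applies to the lists that follow. Nrap, an anchor of myofibrils at the disc, rose by 0.72 (SE 0.09), Xirp1, the paralog of Xirp2, by 0.70 (SE 0.15), and Pkp2, a desmosome protein, by 0.22 (SE 0.06). Nrap was called within each genotype as well. Of 13 genes of NAD synthesis and use, the setting of Nmrk2, 1 rose (Cd38, an NAD-consuming enzyme, by 0.49) and 1 fell (Nadk2, the mitochondrial NAD kinase, by 0.46).

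Among ubiquitin hydrolases and ligases, the setting of Uchl1, Trim54, a muscle ring-finger protein, rose by 0.39 and Uchl3, a hydrolase related to Uchl1, by 0.24. Among 9 tested clade A3 serpins and acute phase genes, the setting of Serpina3n, Timp1 rose by 1.53 and Cebpb fell by 0.49. Of 17 regulators of fetal muscle genes, Mef2a fell by 0.38 and Mkl2, a coactivator of serum response factor, rose by 0.34. For these 3 lists too, the shares over all genes were 2.9% called higher and 2.19% lower. The fall of Mef2a was called within Alox5ko (-0.60, adjusted p = 0.00434) and not in WT (-0.16, adjusted p = 0.532), and the difference between them had an unadjusted p of 0.0032 and an adjusted p of 0.629. Over the 102 genes of these lists, none was called between genotypes or for the difference in response. Over all genes the shares called were 0.109% between genotypes under TAC, 0.0386% without TAC and 0% for the difference.

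For each of the 9, the 2 genes most like it were found among 10327 others, by the root mean square difference of centred log2 CPM over the 12 libraries. These are descriptions and carry no test. Acta1 was nearest to Nppa, the atrial natriuretic peptide gene, and Cilp, a matrix gene (0.58 and 0.61, against an SD of 1.34 for Acta1 itself). Ankrd1 was nearest to Cnksr1 and Nppb (0.23 each, SD 0.79), and Xirp2 to Enah and Tgfb2 (0.16 and 0.17, SD 0.59). Myh7 was nearest to Mhrt, which shares exon bases with it, and to Myom2 (0.09 and 0.15, SD 0.35).

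Mybpc2 was nearest to Ankrd23 and Pdzd3 (0.14 and 0.16, SD 0.46), and Uchl1 to Napepld and Igsf9b (0.17 and 0.19, SD 0.42). For Nmrk2 the nearest were Habp2 and Galns (0.20 and 0.22, SD 0.41), and for Serpina3n Apod and mt-Tv (0.41 and 0.42, SD 0.74). Myh6 was nearest to Sec31a and Uba1 (0.04 each, SD 0.11).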

How the data were processed

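The authors deposited raw counts per gene and RPKM values (reads scaled by gene length and library total) for 12 left ventricle libraries. The submitters' processing notes name HISAT2, DESeq2 and the builds GRCh38 and mm10. The counting program, its annotation release and its strand setting are not given in the sources used here; the labels describe directional libraries. All 336840 RPKM values equal counts scaled by deposited length and library total within 0.1%. Positions are those of the deposited table, in mm10.

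Counts were tested with edgeR 4.0.16 (quasi-likelihood, robust, TMM, limma 3.58.1, R 4.3.3) over all 12 libraries, after filterByExpr (minimum count 10, minimum total 15) left 15542 genes. P-values were adjusted by Benjamini-Hochberg over all genes tested, and a gene was called under 0.05. Ratios of RPKM were tested by exact permutation of log2 values, adjusted over 10 tests. The procedure was tested on simulated data. Alternatives were RLE scaling, scaling without mitochondrial genes, no filter, DESeq2 1.42.0, a fit on the groups compared, a replicate block and leaving out each library.

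The members and lists were chosen with earlier results of these data known. The text names all 9 genes, Alox5, Actc1, Mybpc3, up to 4 called genes per list (or the smallest p) and the 2 genes most like each member. Other names were chosen after their values were seen. TMM factors were 0.945 to 1.035. Pairs of libraries within groups gave a chi-square of 5.39 to 31.8 per gene, so no library repeats another. Contrasts with a shared group are not independent. A result on a listed gene is not reported here.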

Additional observations from a re-analysis of the deposited data

How the results depend on the processing

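The number of the 9 genes called with TAC averaged over genotypes was 4 in the reported fit, 2 with the replicate block, 8 with DESeq2, 6 with no filter and 2 to 5 with 1 library left out. In WT it was 0, against 3 with no filter, 3 with DESeq2, 1 on the groups compared alone and 0 to 1 with 1 library left out. In Alox5ko it was 1, against 2 with no filter, 0 with the replicate block, 3 with DESeq2, 2 on the groups compared alone and 0 to 2 with 1 library left out. Scaling changed none of these counts, and all 9 log2 fold changes stayed positive for the 3 TAC comparisons in every alternative. Over all genes, 949 were called in the average with DESeq2 and 1331 without a filter, against 792 in the reported fit. In WT, DESeq2 called 288 genes and the fit without a filter 538, against 119. In Alox5ko these were 407 and 756, against 209. The cause of these differences was not tested.

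Same-numbered libraries did not pair: the correlations of their deviations ran from -0.105 to 0.0916. With the replicate block, the Myh7 to Myh6 ratio (log2 0.44, averaged TAC) had an exact p of 0.0625, and Xirp2 in Alox5ko an adjusted p of 0.0731.

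With 1 library left out, 46 uncalled values changed sign, all in comparisons of genotypes; no other alternative reversed a direction. The log2 ranges of the genes and ratios concerned follow. Between genotypes under TAC they were -0.13 to 0.84 for Acta1, -0.16 to 0.072 for Myh7, -0.25 to 0.12 for Mybpc2 and -0.25 to 0.016 for the Myh7 to Myh6 ratio. Between genotypes without TAC they were -0.37 to 0.60 for Acta1, -0.14 to 0.22 for Myh7, -0.34 to 0.19 for Mybpc2, -0.085 to 0.084 for Myh6, -0.37 to 0.26 for Ankrd1, -0.12 to 0.17 for Xirp2, -0.41 to 0.00089 for Nmrk2 and -0.075 to 0.13 for the Myh7 to Myh6 ratio. For the difference in response they were -0.21 to 0.94 for Acta1, -0.29 to 0.071 for Myh7, -0.21 to 0.32 for Mybpc2, -0.030 to 0.14 for Myh6, -0.31 to 0.10 for Nmrk2, -0.55 to 0.16 for Serpina3n, -0.57 to 0.62 for the Acta1 to Actc1 ratio and -0.23 to 0.27 for the Mybpc2 to Mybpc3 ratio. The Mybpc2 to Mybpc3 ratio in averaged TAC ran from 0.25 to 0.50, with an unadjusted exact p under 0.05 without WT_NS 2 or Alox5ko_NS 3.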

Other observations

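The Myh7 locus holds further rows outside the 9 genes, singled out here after their values were seen. Mhrt, a long noncoding RNA on the opposite strand, shares 463 exon bases with Myh7, and Gm29015, an antisense gene, shares 142. Gm29015 ran from 40.7 to 47.4 CPM (WT_NS), 110.6 to 189.7 (WT_TAC), 32.1 to 59.5 (Alox5ko_NS) and 90.6 to 159.3 (Alox5ko_TAC). It rose 2.86-fold with TAC averaged over genotypes (log2 1.52, SE 0.22, adjusted p = 0.00705 by edgeR). Its counts were 1.93% to 2.31% of those of Myh7 in the 6 NS libraries and 3.64% to 4.99% in the 6 TAC libraries, with no overlap. Mhrt counts went the other way relative to Myh7: 56.2% to 57.8% in the 6 NS libraries and 48.7% to 51.4% in the 6 TAC libraries. Mhrt itself differed by 0.36 on the log2 scale (SE 0.13, adjusted p = 0.159). Gm29015 shares no exon base with Mhrt. Without the strand setting, reads of these genes and of Myh7 cannot be told apart, and neither ratio was tested.

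The introns of Myh6 and Myh7 also carry the hairpins of miR-208a and miR-208b, whose mature 3p strands have the same seed (bases 2 to 8, in capitals, RefSeq, GRCm38.p6). The sequences are shown because the pair mirrors the myosin pair that hosts it.
mmu-miR-208a-3p: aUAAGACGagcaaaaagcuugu
mmu-miR-208b-3p: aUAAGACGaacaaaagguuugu
The hairpin rows held 29 to 87 counts for Mir208a and 48 to 149 for Mir208b, which measure reads over the hairpin and not the mature miRNA. The averaged log2 differences with TAC were -0.29 (SE 0.22, adjusted p = 0.53) and -0.37 (SE 0.25, adjusted p = 0.481), and neither passed.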
